A study of Mus musculus with 2 samples.

Results

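The Mir106b-25 cluster comprises 3 microRNA genes, Mir106b, Mir93 and Mir25, which lie in tandem inside the gene of the replication helicase subunit Mcm7. The miRNAs were taken by name from both scanner files, as mmu-miR-106b, mmu-miR-93 and mmu-miR-25. They are 3 of the 1080 miRNAs on the array and are read by 6 of its 2780 probes. Each probe was printed as 20 spots, which gives 120 spots per array. An outlier flag removed 1 of them from the E10.5 array and 9 from the E11.5 array.

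The RNA came from embryos of ICR mice, an outbred stock, with 1 pool of 40 embryos for each of the embryonic days E10.5 and E11.5. The tissue was the medial part of the mandibular arch, from which the tongue arises, and the series description gives this interval as the time when tongue myoblasts begin to differentiate. No treatment or genetic change separates the stages, and the collected tissue is a mixture of cell types. Each stage was hybridised to 1 single-colour array, so there were no replicates and no test was possible, and every difference describes these 2 pools. Errors are SDs or SEs among replicate spots and hold only the noise within an array. In such mixed tissue, fewer cells that hold a miRNA and less of it per cell cannot be told apart.

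Mature miR-106b and miR-93 share a seed, the bases near the 5′ end that select target mRNAs, with miR-17 and miR-20, and miR-25 shares another with miR-92a. These are products of the larger paralogous Mir17-92 and Mir106a-363 clusters. The shared-seed miRNAs are known for their abundance in dividing progenitor cells, where miR-106b and miR-93 repress the cell cycle inhibitor Cdkn1a and miR-25 represses the pro-apoptotic Bcl2l11. The cluster is cut from an intron of the Mcm7 transcript, and Mcm7 is itself activated by E2F transcription factors at the start of DNA replication.

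All 3 miRNAs were matched by probe complementarity to RefSeq mature sequences. The mature forms are shown 5′ to 3′ with the seed, bases 2 to 8, in capitals, because the seed defines the 2 families that the comparisons use.
miR-106b: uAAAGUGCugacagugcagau
miR-93: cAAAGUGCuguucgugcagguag
miR-17: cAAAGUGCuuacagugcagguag
miR-20a: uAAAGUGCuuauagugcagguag
miR-20b: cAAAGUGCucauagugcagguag
miR-25: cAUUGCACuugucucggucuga
miR-92a: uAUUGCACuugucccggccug
From base 9 on, the miRNAs of a family diverge. Counted from the 5′ end without gaps, miR-106b and miR-93 were identical at 16 of 21 positions, fewer than the 18 of 21 that miR-106b shared with miR-20a. miR-93 was identical to miR-20b at 20 of 23 positions, and miR-25 to miR-92a at 18 of 21.

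The 3 hairpins lie on the minus strand of chromosome 5 (RefSeq, GRCm38.p6), within 498 bases, and are shown with the mature arm in capitals since the position of that arm differs between them. The hairpin of Mir106b spans chr5:138165737-138165818, that of Mir93 chr5:138165523-138165610 and that of Mir25 chr5:138165321-138165404.
Mir106b: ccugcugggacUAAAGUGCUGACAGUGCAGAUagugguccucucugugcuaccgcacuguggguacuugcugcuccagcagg
Mir93: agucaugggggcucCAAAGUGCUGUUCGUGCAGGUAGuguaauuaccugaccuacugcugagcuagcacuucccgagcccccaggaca
Mir25: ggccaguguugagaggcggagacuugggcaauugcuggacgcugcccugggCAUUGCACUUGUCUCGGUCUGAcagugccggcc
The measured miR-106b and miR-93 are the 5′ arms of their hairpins, and miR-25 is a 3′ arm. All 3 hairpin genes fall within the span of Mcm7 in the RefSeq gene table, and no other gene of that table overlaps them.

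The probes pair with the 3′ part of each miRNA, where the miRNAs of a family differ at only some positions. After base 8, miR-93 was identical to miR-20a and to miR-20b at 12 of 15 positions. By the same count miR-106b was identical to miR-17, and miR-25 to miR-92a, at 11 of 13. They are printed 5′ to 3′ as in the files, with the probe length as the suffix.
miR-106b-16: atctgcactgtcagca
miR-106b-17: atctgcactgtcagcac
miR-93-15: ctacctgcacgaaca
miR-93-16: ctacctgcacgaacag
miR-25-17: tcagaccgagacaagtg
miR-25-18: tcagaccgagacaagtgc
The miR-106b probe of 17 bases pairs with mature bases 5 to 21 and so covers 4 of the 7 seed bases, and the miR-93 probe of 15 bases covers none of them. The longest uninterrupted run that a probe could form with another mouse miRNA of the RefSeq table was 9 bases for miR-106b and 10 for both miR-93 and miR-25. For miR-106b and miR-93, miR-106a-5p of the paralogous Mir106a-363 cluster was among the miRNAs with that run. For miR-25 it was miR-423-3p. Whether the probes read those other miRNAs was not tested.

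A miRNA counted as detected where at least 50% of the spots of 1 of its probes were well above background, which held for 144 miRNAs on the E10.5 array and 199 on the E11.5 array. All 6 probes of the cluster were well above background at every spot used. The negative controls averaged 7.87 ± 6.16 at E10.5 and 5.88 ± 5.60 at E11.5 (SD over 1000 spots each). The tissue label was set against marker miRNAs. Of 6 mesenchymal markers, E10.5 showed 4 and E11.5 showed 5, and of 4 striated muscle markers 0 and 4. Of 7 epithelial markers 4 and 5 were detected, and of 2 neural markers (miR-9 and miR-124) 0 and 0. The summed scaled intensity of the epithelial list was 5.41 and then 2.38 at the later stage, and that of the mesenchymal list was 52.3 and then 56.3. That of the striated muscle list was 0.172 at E10.5, from probes that did not pass detection, and 1.89 at E11.5. Of 3 blood markers 1 and 2 were detected, with a summed scaled intensity of 0.975 and then 0.598. miR-126-3p, the endothelial marker, was detected on both arrays at 2.75 and then 1.57. These intensities rest on the scaling described below. Before it, the log2 difference (E11.5 minus E10.5) was 0.50 for miR-126-3p and 0.71 for miR-451, the blood marker measured on both arrays. For the 4 epithelial markers measured on both arrays it ran from -0.28 to 0.46. The part of the shifts in these lists in the values of the cluster was not tested.

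Before any scaling, all 3 miRNAs were brighter at E11.5. Intensities are in array units after background subtraction. The miR-106b probe of 17 bases averaged 393.5 ± 18.0 over 20 spots at E10.5, from 360.2 to 423.0, and 719 ± 28.2 over 19 spots at E11.5, from 663 to 773. Its probe of 16 bases averaged 152 ± 11.2 (20 spots) at E10.5 and 283 ± 10.4 (16 spots) at E11.5. On neither probe did the spots of the 2 arrays overlap, and the E11.5 array was brighter by 1.83-fold and 1.87-fold.

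miR-25, the most downstream of the tandem, gave a similar picture. Its probe of 18 bases averaged 730 ± 26.6 (20 spots) at E10.5 and 1279 ± 50.9 (20 spots) at E11.5. The probe of 17 bases averaged 140 ± 10.4 (20 spots) and 241 ± 13.2 (17 spots). Again no spots overlapped between the arrays, with ratios of 1.75 and 1.72.

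miR-93, the middle gene, gained least in brightness. Its probe of 16 bases averaged 535 ± 19.7 (19 spots) at E10.5 and 760 ± 38.5 (20 spots) at E11.5, a ratio of 1.42. The dim probe of 15 bases averaged 61.9 ± 7.67 (20 spots) and 82.5 ± 6.40 (19 spots), a ratio of 1.33. The spots of the longer probe did not overlap, while on the dim probe they did, since the highest spot at E10.5 was 79.3 and the lowest at E11.5 was 69.8.

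**Figure D1:**
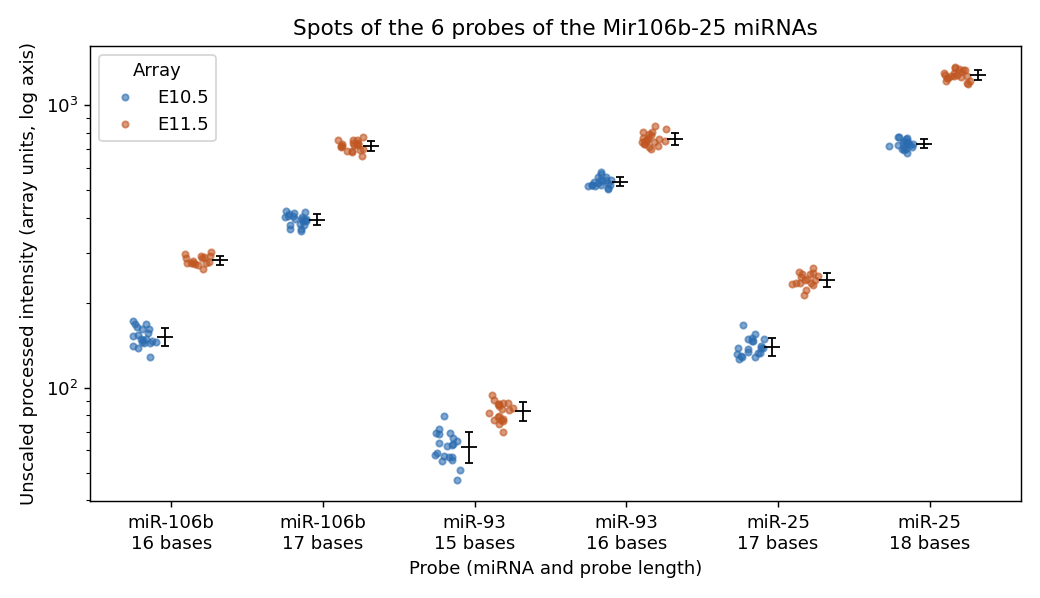
Unscaled processed intensity (array units, log axis) of each spot of the 6 probes, at E10.5 (blue) and E11.5 (orange), with the mean and SD over spots as black bars. The E11.5 spots lie above the E10.5 spots on every probe except the miR-93 probe of 15 bases, where the ranges overlap between 69.8 and 79.3.

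Higher brightness at E11.5 was general on these arrays. Of the 137 miRNAs measured at both stages, 124 (90.5%) had the higher unscaled intensity at E11.5, and for 107 (78.1%) the E11.5 spots of every detected probe lay above those of E10.5, as they did for 2 of the 3 cluster miRNAs. The median unscaled log2 ratio over the 137 miRNAs was 1.24, against 0.89 for miR-106b, 0.80 for miR-25 and 0.46 for miR-93. All 3 thus gained less brightness than the median miRNA. The 20 control probes detected on both arrays had log2 ratios from 0.26 to 0.90, with a median of 0.49. How much of the general gain belongs to the array and how much to the RNA cannot be told apart.

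To compare the stages, each array was divided by the 75th percentile of the 218 probes detected on both, which took 1.31 off every log2 ratio. The resulting differences, E11.5 minus E10.5, are relative to the other detected miRNAs and had a median of -0.07. As scaled, miR-106b differed by -0.43 ± 0.017 (SE over spots), miR-25 by -0.52 ± 0.018 and miR-93 by -0.85 ± 0.026, so that all 3 were lower at E11.5. That sign rests on the scaling, since all 3 were above 0 when arrays were left unscaled, scaled to the 75th percentile over every probe, or scaled to control probes. In linear terms, and as scaled, miR-106b was 1.35-fold, miR-25 1.43-fold and miR-93 1.81-fold higher at E10.5.

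Against all measured miRNAs these were moderate differences. Below 0 (as scaled) were 3 of 3 cluster miRNAs and 72 of 137 overall (52.6%), while 0 of the 3 and 19 of the 137 (13.9%) were at least 2-fold lower, and 5 (3.65%) at least 2-fold higher. Ordered from the lowest difference, miR-93 stood at place 28 of 137, miR-25 at 45 and miR-106b at 47. On all 6 probes the scaled E11.5 spots lay entirely below the scaled E10.5 spots. That held for every detected probe of 45 of the 137 miRNAs (32.8%).

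Set against the median of all measured miRNAs, a quantity that a common scaling factor leaves unchanged, miR-106b was at -0.36, miR-25 at -0.45 and miR-93 at -0.78. Over 11 other processing choices these values ran from -0.43 to -0.07 for miR-106b, from -0.48 to -0.12 for miR-25 and from -0.85 to -0.46 for miR-93. The values nearest 0 all came from normexp background correction. With all probes kept and a floor set at the lowest detected signal of each array, the 3 lay above the median, because undetected miRNAs then take the difference between the floors (a median of -1.38).

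The miRNAs of the cluster also differed from each other. The 2 probes of one miRNA gave close differences, -0.44 and -0.41 for miR-106b, -0.53 and -0.50 for miR-25, and -0.90 and -0.81 for miR-93. Between miRNAs, miR-106b stood above miR-93 by 0.42 ± 0.031 and miR-25 above miR-93 by 0.34 ± 0.031, both larger than 2 SEs over spots. miR-106b and miR-25 were 0.09 ± 0.024 apart, also more than 2 SEs over spots. That small gap turned with quantile normalization and with the authors' value table, where miR-25 was the higher, at -0.30 against -0.33 and at -0.35 against -0.46. A gap beyond 2 SEs over spots can therefore still depend on the processing. miR-93 was the lowest of the 3 as reported and under each of the 12 alternatives. Leaving arrays unscaled, or scaling to every probe, the median of shared probes or control probes, cannot change this order. Nor can every-spot detection or the floor, since all probes of the cluster were well above background at every spot used. All 3 hairpins lie within Mcm7, and on these arrays the stage difference of mature miR-93 was not equal to that of its neighbours beyond spot noise.

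**Figure D2:**
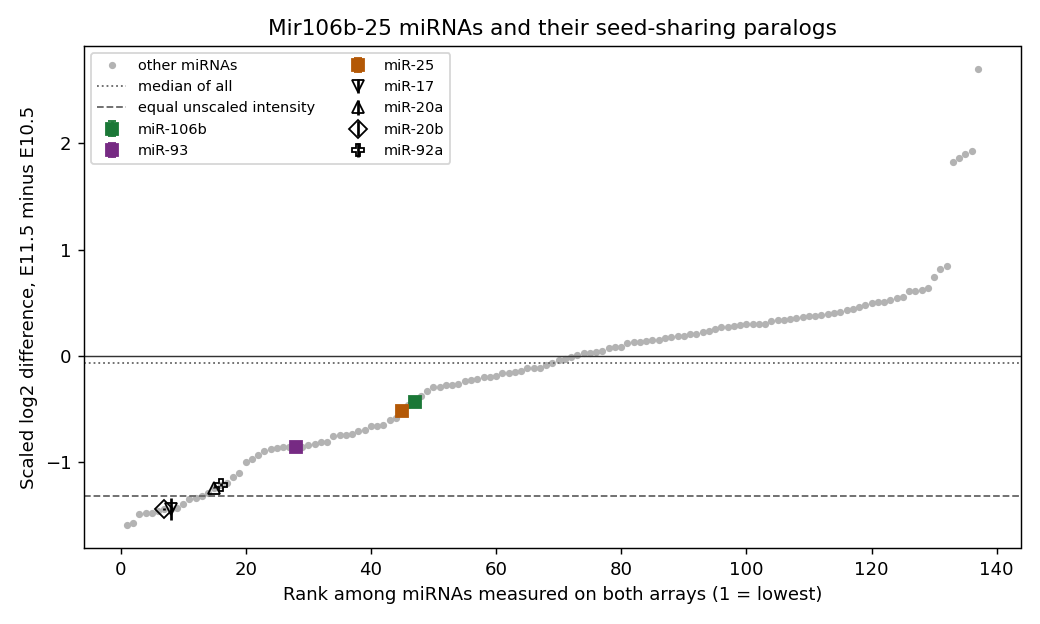
Scaled log2 difference (E11.5 minus E10.5) of the 137 miRNAs measured on both arrays, in rank order, with the cluster miRNAs as filled squares and seed-sharing paralogs as open symbols, and SEs over spots as bars. The cluster miRNAs (-0.43, -0.52 and -0.85) lie below the median of all (-0.07, dotted) and above their paralogs (-1.21 to -1.44), and the dashed line marks equal brightness before scaling.

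The closest relatives by sequence served as the comparison. On the array, 3 other miRNAs carried the seed of miR-106b and miR-93, all products of the paralogous clusters. The array held no probe under the name miR-106a, so that product of the Mir106a-363 cluster was not compared. miR-20a differed by -1.24 ± 0.0071, miR-20b by -1.44 ± 0.012 and miR-17 by -1.44 ± 0.10, the last from 1 dim probe (39.5 at E10.5 and 36.3 at E11.5). All 3 were at least 2-fold lower as scaled, which neither miR-106b nor miR-93 was. Before scaling, miR-20a averaged 1910 and 2039 on its brighter probe and miR-20b 963 and 926, so their unscaled log2 differences were 0.08 and -0.12, against 0.89 for miR-106b.

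A common scaling factor cancels in the gap between 2 miRNAs. miR-106b lay above miR-20a by 0.81 ± 0.018 and above miR-20b by 1.01 ± 0.021, which makes the ratio of miR-106b to miR-20b 2.01-fold higher at E11.5. miR-93 was nearer to them, 0.38 ± 0.027 above miR-20a and 0.58 ± 0.029 above miR-20b. The median of miR-106b and miR-93 exceeded that of the 3 relatives by 0.80, and by 0.70 without miR-17. The median of the 3 relatives is itself the value of miR-17, from its dim probe. Over all 13 alternatives, chosen for this gap after the data were seen, it stayed above 0, from 0.54 with quantile normalization to 0.80. Those that only rescale an array cannot change it.

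For the seed of miR-25, 5 other miRNAs were on the array, of which miR-92a was the one detected. It averaged 3029 at E10.5 and 3284 at E11.5 on its brighter probe and differed by -1.21 ± 0.012 as scaled, a value that was above 0 without scaling (0.11) and, by little, when arrays were scaled to every probe (0.0076). miR-25 stood above miR-92a by 0.69 ± 0.021, and over 12 alternatives this gap ran from 0.44 with the value table to 0.71. Alternatives that only rescale an array cannot change this gap. miR-32, miR-92b, miR-363-3p and miR-367 were not well above background on either array, with no probe above 25.6 at E10.5 or 10.9 at E11.5.

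The remaining products of the paralogous clusters carry other seeds. Of 9 miRNAs of Mir17-92 and Mir106a-363 on the array under these names, 7 were measured on both arrays, with a median of -1.21 as scaled and 0.11 unscaled. Among the 7, the smallest scaled differences were those of miR-19b (-0.74) and miR-19a (-0.86), on either side of miR-93 (-0.85), while miR-106b (-0.43) and miR-25 (-0.52) lay above all 7. These 9 names leave out opposite arms, of which miR-17* of Mir17-92, named after its values were seen, was measured on both arrays. It differed by -0.80 as scaled (0.51 unscaled), between miR-19b and miR-19a. Mature miR-19b and miR-92a are each encoded in both paralogous clusters, so their levels sum both sources.

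**Figure D3:**
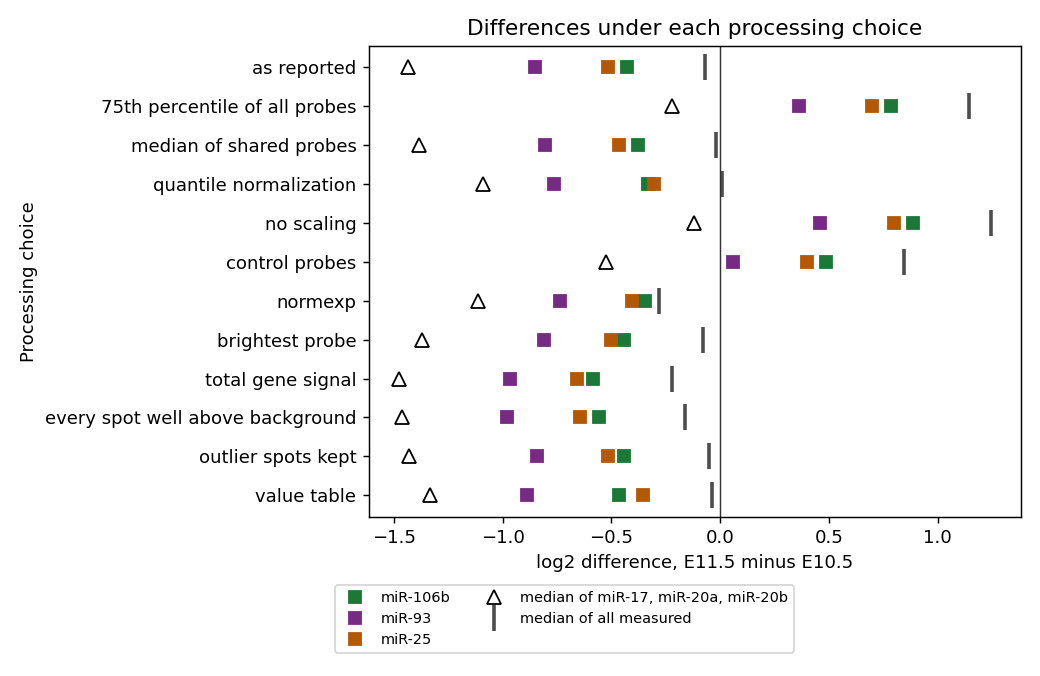
Log2 difference (E11.5 minus E10.5) of the cluster miRNAs (squares), the median of miR-17, miR-20a and miR-20b (triangles) and the median of all measured miRNAs (bars) as reported and under 11 of the 12 alternatives, leaving out the floor without a filter. The 3 cluster miRNAs are above 0 under 3 scalings (to every probe, none, control probes). In every line they lie between the triangle and the bar, an order that rescaling an array cannot change. As reported, the triangle is the value of miR-17, read by a dim probe.

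The opposite arms of the hairpins are usually discarded when the mature strand is loaded onto Argonaute. They were read by 10 probes, 4 for miR-106b*, 4 for miR-93* and 2 for miR-25*. Of these, 1 passed detection, the longest miR-106b* probe, at E11.5. It is shown with the next shorter probe because 1 base separates signal from none.
miR-106b*-15: gcagcaagtacccac
miR-106b*-14: gcagcaagtaccca
The probe of 15 bases averaged 20.2 ± 6.40 at E10.5 (10 spots), where it was not well above background, and 35.7 ± 4.23 at E11.5 (9 spots). The probe of 14 bases averaged -0.44 ± 3.94 and -1.02 ± 5.80, close to 0. Before scaling, the E11.5 intensity of the longer probe exceeded that of the lowest detected probe at E10.5, which sets a bound of at least 1.15-fold higher, and as scaled (0.104 at E10.5 and 0.0740 at E11.5) no bound exceeded 1. Feature Extraction's own gene flag called miR-106b* detected on both arrays, and the authors' value table lists it at 6.53 and 2.57. The total gene signal of Feature Extraction, which is not scaled between arrays, was 1.01 at E10.5 and then 3.58. The scaled spots of the probe of 15 bases overlapped between the arrays, so no scaled direction is given for miR-106b*.

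Neither miR-93* nor miR-25* gave a signal. The miR-93* probes averaged from -3.89 to -0.27 at E10.5 and from -4.23 to 2.01 at E11.5. For miR-25* the averages were between -0.19 and 2.14 at E10.5 and between 0.08 and 2.28 at E11.5. All of these lay under the negative control mean of their array.

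**Figure D4:**
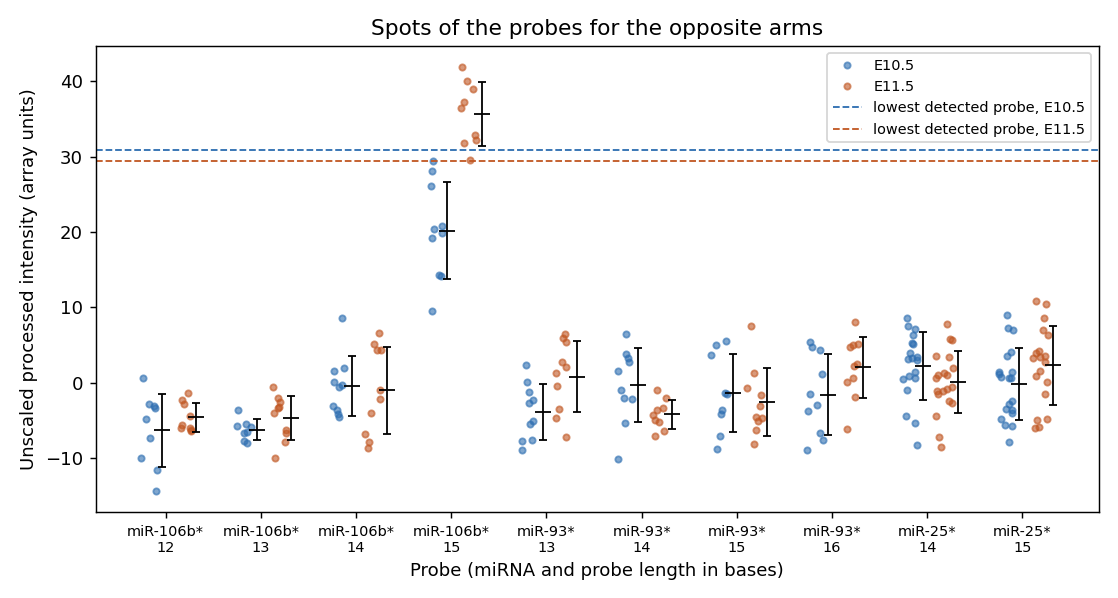
Unscaled processed intensity (array units) of each spot of the 10 probes for miR-106b*, miR-93* and miR-25* at E10.5 (blue) and E11.5 (orange), with the mean and SD over spots in black and the lowest detected probe of each array as dashed lines. The miR-106b* probe of 15 bases is the one that lies above 0 by more than its spread, at 20.2 and 35.7.

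The miRNAs whose stage difference lay nearest to the cluster's median (-0.52) were sought over the 2 arrays among all measured ones. They were miR-872 (-0.46 ± 0.057), miR-296-5p (-0.58 ± 0.036) and the erythroid miR-451 (-0.60 ± 0.033). With 2 arrays such likeness rests on 1 difference per miRNA.

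The 3 hairpins lie within Mcm7, whose transcript the array did not measure. Which start site gives rise to them in this tissue was not tested. The RefSeq promoter table has 2 windows for Mcm7, each from 250 bases before to 50 after a start site. The window at chr5:138171834-138172133 (GRCm38.p6, minus strand) is shown because it holds a match to the E2F motif.
Mcm7: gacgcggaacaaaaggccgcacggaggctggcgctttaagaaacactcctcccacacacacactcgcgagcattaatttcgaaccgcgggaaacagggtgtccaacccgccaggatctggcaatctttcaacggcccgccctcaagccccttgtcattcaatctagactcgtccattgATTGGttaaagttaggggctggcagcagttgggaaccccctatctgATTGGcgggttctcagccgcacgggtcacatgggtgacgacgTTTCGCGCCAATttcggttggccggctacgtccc
Capitals mark matches, on either strand, to TTTCGCGC, an E2F motif, and to CCAAT, the box bound by NF-Y. The E2F match begins 16 bases after the start site and shares its last base with a CCAAT match, and 2 further CCAAT matches on the opposite strand lie 72 and 26 bases before the start. TTTCGCGC is found in 0.323% of the 32851 promoter windows of the same length and CCAAT in 37.4%. The other Mcm7 window holds 1 CCAAT match and no TTTCGCGC. A match describes the letters of the window and is no evidence of binding in this tissue.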

How the data were processed

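Total RNA of each pool was labelled with Cy3 and hybridised to an Agilent miRNA array of design 031184. In the deposited scanner files each spot has an intensity from which Feature Extraction 10.7.1.1 had subtracted the background and a spatial trend, per the file headers. No normalization between arrays had been applied. Version 9.5.1.1 of Agilent Feature Extraction is given instead per the submitters' processing notes. The authors' deposited value table, used as an alternative, holds 1 intensity per miRNA on a linear scale, normalized in a way the labels do not give, with 0.1 for undetected miRNAs.

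Outlier-flagged spots were dropped (of 43200, 2058 on the E10.5 array and 2118 on the E11.5 array) and the rest averaged per probe. Detection required 50% of a probe's spots well above background. Scaling divided all values of an array by the 75th percentile of its intensities among probes that passed on both. For each such probe, log2 at E10.5 was subtracted from log2 at E11.5, and these values were averaged per miRNA. Fold counts used 2-fold. No miRNA spot was saturated, and the number of arrays limits the precision. Names followed a rule: the 3 miRNAs, their opposite arms, array miRNAs sharing a seed, the paralogous clusters, and the 3 miRNAs nearest to the members' median. Members, lists and rule were chosen with earlier results of these data known. Of 1023 mouse miRNAs on the array, 794 matched a RefSeq mature sequence, so seed families cover those. The step from probe means to differences was tested on simulated data with known changes, where differences were first centred on the miRNAs known to be unchanged. The choice of scaling was therefore not tested. Both simulated arrays took their detection from the E10.5 array, so detection and outlier removal were not tested either. Python 3.11.15, numpy 2.4.6, pandas 2.3.3, matplotlib 3.10.9, R 4.3.3 and limma 3.58.1 (normexp, offset 50) were used.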

Additional observations from a re-analysis of the deposited data

How the results depend on the processing

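An alternative counted as moving a difference or a gap when it shifted it by more than 1 SD over spots. Counts of miRNAs have no such SD. For miR-106b, miR-93 and miR-25 the differences were 0.89, 0.46 and 0.80 for unscaled arrays. Scaling to the 75th percentile over every probe gave 0.79, 0.36 and 0.70, and control-probe scaling gave 0.48, 0.060 and 0.40, so these 3 choices turned the sign. It stayed below 0 under the other 9 alternatives. There, miR-106b moved to -0.58 (total gene signal) and -0.55 (every-spot detection), and miR-25 to -0.66 and -0.64 likewise, to -0.30 (quantile normalization), -0.41 (normexp) and -0.35 (value table). The median of the miR-17 seed family was -0.12 unscaled, -0.22 scaled to every probe, -0.52 scaled to control probes, -1.09 under quantile normalization and -1.12 under normexp. The unscaled, every-probe and control-probe values are those of miR-17, read by a dim probe. The miR-25 seed family, measured through miR-92a, was at 0.11 unscaled, 0.0076 scaled to every probe, -0.29 scaled to control probes, -1.01 under quantile normalization, -0.97 under normexp, -1.35 from total gene signal, -1.33 under every-spot detection and -0.80 in the value table. The gap to the miR-17 seed family was 0.54 under quantile normalization, and that between miR-25 and miR-92a was 0.56 under normexp and 0.44 in the value table. The gap between miR-106b and miR-93 stayed between 0.37 and 0.43 under 12 alternatives, of which those that only rescale an array cannot change it. The 19 miRNAs at least 2-fold lower became 0 unscaled, 0 scaled to every probe and 0 scaled to control probes, and 937 without a filter but with a floor, where undetected miRNAs take the gap between the floors. Under the other alternatives that count ran from 14 (normexp) to 28 (value table). The 5 at least 2-fold higher became 88 unscaled, 80 scaled to every probe, 57 scaled to control probes and 9 in the value table. Under the other alternatives they ran from 4 (every-spot detection) to 7 (floor). Beyond these constructions the cause was not tested. The miR-93 probe of 15 bases and the miR-17 probe lie nearest the background. No paired analysis was possible because each stage has 1 array, and for the same reason no replicate could be left out.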

Other observations

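The scanner files give mm9 positions for each probe. Between the listed positions of the miR-106b and miR-93 probes the spacing was 209 bases, and between those of miR-106b and miR-25 it was 375. The mature sequences lie 213 and 455 bases apart in RefSeq (GRCm38.p6). Mirroring each target within its hairpin gives spacings of 209 and 375, equal to those in the files. The listed mm9 positions of these minus-strand miRNAs were therefore not used.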
